A study of Drosophila melanogaster with 13 samples.

Results

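The wide reproducible Lola.N domains are 301 stretches of the fly genome in which a Targeted DamID peak of replicate N1 spanned at least 2000 bp, shared at least 1 bp with a peak of replicate N2, and was not among the 500 shared N1 peaks of highest score. They were selected on width, N1 score and overlap with N2, so these quantities are described below without a test. They are 301 of 4676 N1 peaks (6.44%) and hold 834236 bp, 17.2% of all bases in N1 peaks. The N2 list held 4544 peaks, and 3308 N1 peaks overlapped at least 1 of them. Of 466 N1 peaks at least 2000 bp wide, 341 overlapped N2, and 40 of those were among the 500 of highest score. The remaining shared peaks, 2507 in number, were narrower than 2000 bp.

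DamID was done in cells of the larval brain in which ey16F10-GAL4, an eyeless driver, expressed Dam fused to Lola.N, a protein isoform of the lola gene; both replicates carry this same label. RNA was counted in separate samples, namely flow-sorted optic lobe clones from the wandering L3 stage that were WT, lola[E76] or nerfin-1[159], with 3 libraries per genotype. Each of these libraries pooled sorts made on different days, and the labels name no separate animals; p-values therefore refer to the spread of these pools. The column names of the count table mark the WT libraries FRT42D, the lola[E76] libraries Lola42D and the nerfin-1[159] libraries Nerfin2A, so the WT name shares 42D with lola[E76] only. A difference of background that goes with these names cannot be told apart from the nerfin-1[159] genotype. The shared 42D does not show that lola[E76] and WT are otherwise alike in background, and this was not tested. Cells carrying the driver and sorted clone cells are different populations, and the DamID lists therefore do not give contact in the clones themselves.

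Lola belongs to the BTB zinc finger family and is made as many isoforms that share the BTB domain and differ in their zinc fingers. In the optic lobe Lola and the zinc finger protein Nerfin-1 act in young neurons to keep them from returning to a neuroblast (neural stem cell) state. In DamID, the fused methylase marks GATC sites near the places its partner contacts, so a peak runs between GATC sites and its width depends partly on where these lie.

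Domain width ranged from 2000 to 7949 bp with a median of 2496 bp, against a median of 722 bp for the narrow shared peaks and 776 bp for the 500 of highest score. The authors' N1 score, whose scale the sources used here do not state, ranged from 0.91 to 4.32 with a median of 2.15, below the median of 2.63 of the narrow peaks. The widest domain (2L:20946616-20954564, score 2.75) covered the non-coding gene lncRNA:CR44606 whole. It was followed by a domain of 5760 bp at X:1596140-1601899 within both br and Mur2B, 1 of 5565 bp within stan (2R:10677481-10683045), and 1 of 5535 bp at 3R:25586319-25591853 that met msi, mir-1000, ymp and lncRNA:CR45910. The sources used here name no genome build for the peak lists.

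The thresholds divided peaks of like size. The widest shared peak under the width limit measured 1998 bp (3L:18073004-18075001, score 3.17) and the narrowest domain 2000 bp (3L:3089824-3091823, score 2.43). The domain of highest score reached 4.32 (2L:22178293-22180524, at CG3635), and the wide peak of lowest score among the 500 left out had 4.39 (3R:8844043-8847158, in pyd). The peak of rank 500 and the next both scored 4.37, as did 6 peaks in all, and none of these was at least 2000 bp wide.

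**Figure D1:**
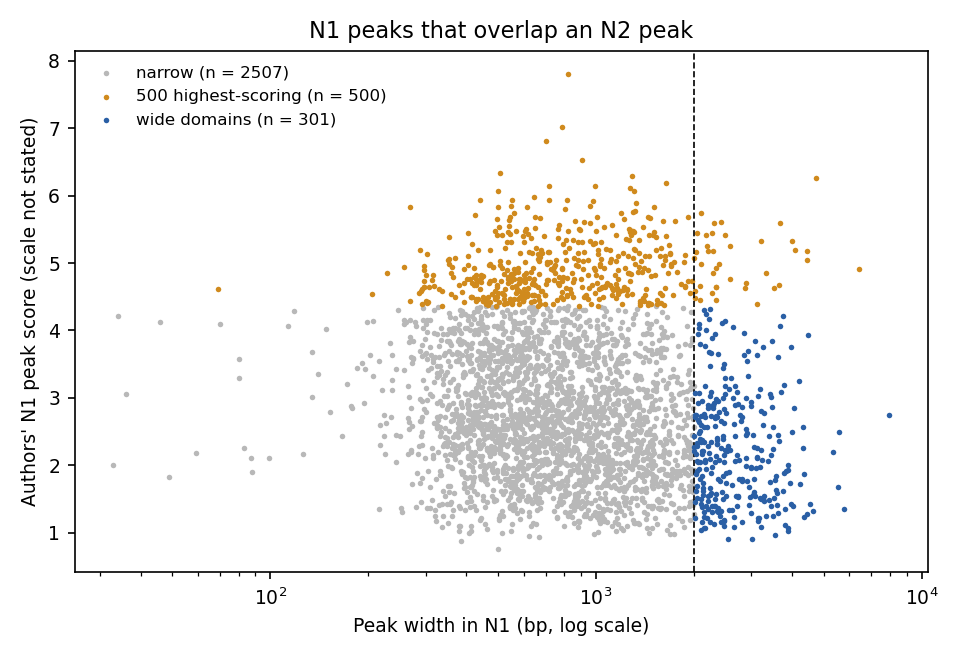
N1 peaks that overlap an N2 peak, with width in bp on a log axis and the authors' N1 score, on an unstated scale, on the vertical axis. Each point is a peak; the 301 wide domains lie right of the dashed line at 2000 bp and below the 500 highest-scoring peaks.

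Overlap with N2 was required by the rule, and the outlines differed between replicates. N2 peaks covered a median of 85.3% of a domain (9.57 to 100%), and 105 of 301 domains were covered whole, 237 by at least 50% and 18 by less than 25%. The domain and an N2 peak shared the same start in 140 cases, the same end in 130 and both in 63 (20.9%), against 51.8% with both for the 500 highest-scoring peaks and 33.7% for the narrow peaks. The N2 peaks met by a domain summed to at least 2000 bp for 189 of the 301. Across the 301 domains N1 score and the highest N2 score gave a Pearson r of 0.743 (Spearman 0.727), while N1 width and summed N2 width gave 0.368 (0.376). These points share the genome's GATC sites, and the authors compared each replicate with Dam alone. A width of 4541 bp in N1 at Drgx, for example, stood beside an N2 peak of 4735 bp that shared 440 bp with it.

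The domains were spread over 58 on 2L, 59 on 2R, 78 on 3L, 53 on 3R, 51 on X and 2 on chromosome 4, with 0 of 301 on Y. The median gap to the nearest other domain was 110819 bp, and 54 domains had another within 20000 bp. The X chromosome held 16.9% of the domains, against 23.6% of the 500 highest-scoring peaks and 22.2% of the narrow peaks.

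To place the domains among genes, gene bodies of the RefSeq Release 6 table were used. Peaks reach positions past the ends of the arms in the older Release 5 assembly, and shared peaks held a gene end in 890 of 3308 cases, against 714 and 670 when moved by 5 kb either way. Gene assignments rest on this match of builds. Of the 301 domains, 121 (40.2%) lay wholly inside a gene, 86 (28.6%) crossed a gene end, 38 (12.6%) held a whole gene, 11 (3.65%) lay within 1 kb of a gene and 45 (15.0%) had no gene within 1 kb. Among the 500 highest-scoring peaks these shares were 49.6, 24.2, 4.8, 6.6 and 14.8%, and among narrow peaks 54.8, 22.4, 2.39, 4.91 and 15.5%. A wider interval can hold a gene more easily, and the part of the width rule in the share that held a gene was not tested. The 45 domains away from genes had a median width of 2465 bp and a median score of 2.08, and 12 of them lay more than 10000 bp from any gene.

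**Figure D2:**
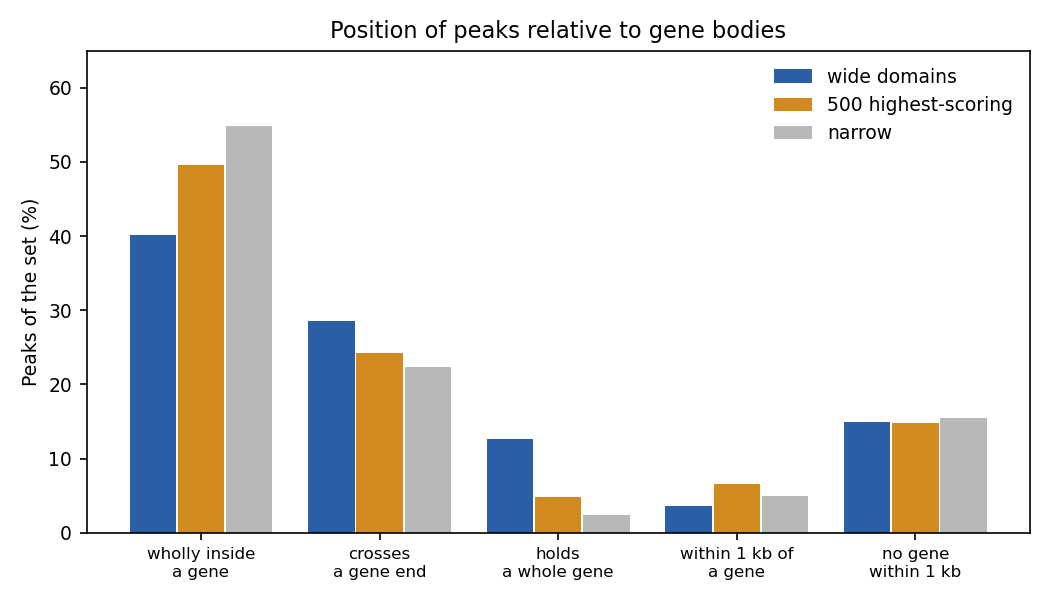
Share of peaks (%, vertical axis) in each position relative to gene bodies for the wide domains (n = 301), the 500 highest-scoring peaks and the narrow peaks. Domains were inside a gene in 40.2% of cases and held a whole gene in 12.6%.

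A gene was assigned to a domain when its body, extended by 1000 bp on either side, overlapped it. This gave 434 genes, of which 336 were protein-coding and 45 long non-coding. They were long: the median coding gene body was 8707 bp against 2160 bp for all coding genes, and 30.4% reached 20 kb against 7.31%. Longer genes meet more regions by their length alone, and 10% of all coding genes of at least 20 kb had a domain against 2.41% of all coding genes. Most of the 434 genes (291) met no other shared peak, 45 also met a peak among the 500 of highest score and 129 a narrow peak. Several domains met the same gene in 21 cases. jing, a zinc finger transcription factor, met 4 domains (2R:6549503-6551966, 2R:6557908-6560712, 2R:6584692-6586784 and 2R:6595423-6597989), all wholly inside the gene. It also met 2 of the 500 highest-scoring peaks and 8 narrow peaks. erm, a zinc finger factor of neuroblast temporal patterning, met 2 domains, and so did chinmo, the BTB zinc finger gene in the study's title.

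Lists of genes of the optic lobe were set against the domains, and 26 of 239 listed genes had a domain. Ecdysone genes had 4 of 12 (EcR, the hormone receptor, Eip75B and Hr4, nuclear receptors, and Eip93F, a late-acting transcription factor) and commitment genes 3 of 9 (elav and mbl, RNA-binding proteins of neurons, and brat, a growth suppressor in neuroblast daughters). Homeodomain identity factors had 3 of 20 (Lim1, Rx and unpg), temporal factors 2 of 14 (erm and B-H1), BTB zinc finger factors 2 of 14 (chinmo and br), neuroblast genes 2 of 13 (brat and grh) and adhesion and guidance genes 3 of 25 (Sema1a, Ten-a and Nrg). Ets65A, Gad1, abd-A, eya, E2f1, Hex-A, RpL8 and msi were the only members with a domain of the other neuron identity, synapse, Hox, signalling, S phase, glycolysis, ribosomal protein and RNA-binding timer lists, and the Notch list (0 of 13 matched) and mitosis list (0 of 12) had none. The median gene of the ecdysone list was 42028 bp long and that of the mitosis list 3156 bp. lola itself, nerfin-1, Imp, Syp, dpn and pros had no wide domain, although each met shared peaks of the other classes.

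RNA of the domain genes came from libraries of 3465601 to 5200223 counts, made with QuantSeq, which tags transcripts near their 3′ end. Of the 434 genes, 285 passed the filter on low counts and were tested together with all 7451 tested genes. Their median WT level was 5.57 log2 CPM (counts scaled to library size) against 4.18 for all tested genes. nerfin-1 tags were at 313, 263 and 275 CPM in WT and 18.4, 6.77 and 2.13 CPM in nerfin-1[159] clones (log2 difference -4.98 ± 0.36, edgeR adjusted p = 4.16e-08), while lola tags did not differ by the test in lola[E76] clones (0.17 ± 0.10, edgeR adjusted p = 0.414). The lola tags do not check that label, because the sources used here do not say where they lie relative to the change in the allele. In sorted bulk samples, fewer cells of a type and less RNA per cell cannot be told apart. Summed neuroblast markers (4 of 4 measured) ran from 47.7 to 138 CPM in WT, then 236 to 303 in lola[E76], then 355 to 429 in nerfin-1[159]. Neuron markers (5 of 5) ran from 7291 to 8401, from 6390 to 6977 and from 4532 to 5438 CPM. Haemocyte and fat body markers (10 of 10, with NimC1 and Lsp1alpha at 0) ran from 5.06 to 17.2, from 27.4 to 55.1 and from 199 to 263 CPM, glia markers from 183 to 213, from 213 to 297 and from 209 to 261 CPM, and eye disc markers from 5.00 to 15.2, from 5.73 to 21.9 and from 6.71 to 18.5 CPM. Of the 10 haemocyte and fat body markers, 3 passed the filter on low counts. In nerfin-1[159] against WT, 1 of these was called higher and 0 lower, with a median log2 difference of -0.23. The summed level is thus not a rise of the whole list. The part of all these marker levels in the differences below was not tested.

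The first RNA comparison asked which domain genes differ in clones mutant for lola. Falls outnumbered rises: 29 of the 285 tested domain genes were called lower in lola[E76] than in WT and 12 higher (edgeR's quasi-likelihood test, Benjamini-Hochberg adjusted p under 0.05). That is 14.4% called, 10.2% lower and 4.21% higher, beside 6.5% of all tested genes called, 2.91% lower and 3.58% higher. The genes that fell included the transcription factor genes Ets65A, Drgx, Lim1, B-H1, Eip93F and jing, and the axon guidance gene Sema1a. Those that rose included ps, an RNA-binding splicing factor, Moe, which links actin to the membrane, and the Wnt receptor gene fz2. Falls had a median of -0.86 (log2) and rises of 1.04, and the median over all 285 was -0.09 beside -0.00 over all tested genes. Without WT replicate 1 the counts became 14 lower and 7 higher, without WT replicate 2 they became 16 and 6, and dropping either WT replicate 3 or lola[E76] replicate 3 left 20 lower and 7 higher; lower calls exceeded higher ones in every one of these.

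Genes of the 500 highest-scoring peaks were called higher in 42 of 420 and lower in 15, and those of narrow peaks higher in 112 of 1744 and lower in 77. Lower calls outnumbered higher ones for the domain genes in each of 15 alternative fits and higher outnumbered lower for both other sets in each. The narrow peaks split by score, however: those below the domains' median score gave 29 higher and 32 lower of 643 genes, and those at or above it 93 and 59 of 1263. Domain genes gave 7 higher and 14 lower of 153 below that score and 5 and 17 of 140 at or above it. A gene near peaks of different classes counts in each, and the difference between the sets was not tested. Domain genes with no peak among the 500 were 24 lower and 8 higher of 241. Wide peaks among the 500 highest-scoring gave 2 lower and 4 higher of 37 genes, and wide N1 peaks with no N2 overlap 9 lower and 6 higher of 125.

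**Figure D3:**
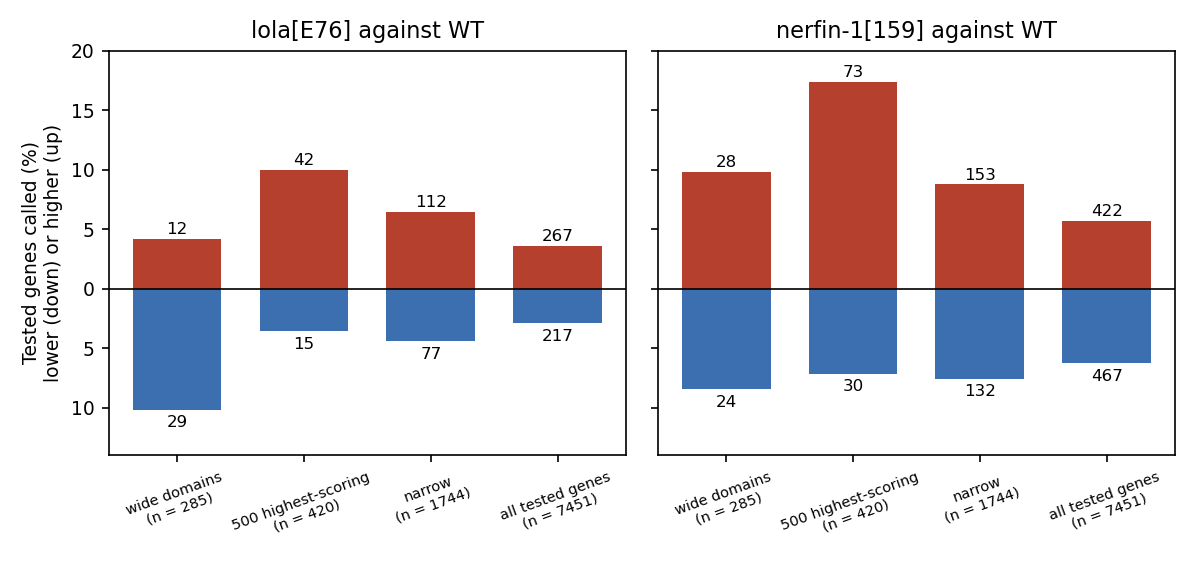
Tested genes called (%) higher (up) or lower (down) than WT by set of peaks, with lola[E76] left and nerfin-1[159] right, and the number of genes above or below each bar. In lola[E76] the domain genes show 29 lower and 12 higher of 285, and those of the 500 highest-scoring peaks 15 and 42 of 420.

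This split varied with expression level, and with gene length among the domain genes. Among other genes, higher calls outnumbered lower ones in both length classes. Among domain genes at or above their median WT level, 23 of 143 were lower and 7 higher, while of 1964 other genes at such levels 128 were lower and 73 higher. Below that level the domain genes gave 6 lower and 5 higher of 142, and other genes 60 and 182 of 5202. Domain genes of at least 20 kb gave 16 lower and 4 higher of 101 against 42 and 58 of 775 other genes of that length, and shorter ones 13 and 8 of 184 against 146 and 197 of 6389. On 2R, the arm that carries lola, 8 domain genes were lower and 0 higher of 50, and off 2R 21 were lower and 12 higher of 235. Of all tested genes, 48 were lower and 70 higher of 1461 on 2R, and 169 and 197 of 5988 off it. Domains covered by N2 over at least 50% of their length gave genes with 27 lower and 7 higher of 227. Domains wholly inside a gene gave 16 lower and 4 higher of 119, and those crossing a gene end 12 and 7 of 128. Those holding a whole gene gave 2 lower and 1 higher of 45 (6.67% called, beside 6.5% of all tested genes). All of these splits were chosen after the results were seen and carry no test.

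Ets65A, an ETS-family transcription factor, had a domain within its gene body (3L:6102485-6104865, score 2.79) that N2 covered whole. This gene body overlaps 1 other gene. It was at 156, 131 and 187 CPM in WT, 56.4, 80.6 and 42.2 in lola[E76], while nerfin-1[159] libraries had 172, 145 and 192. Every lola[E76] library lay below every other library, while WT and nerfin-1[159] overlapped. The log2 difference between lola[E76] and WT was -1.40 ± 0.20 (SE, n = 3 per genotype, edgeR adjusted p = 0.000192).

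Lim1, a LIM homeodomain factor of neuron identity, held a domain wholly inside the gene (X:8768899-8771214, score 2.7), also covered whole by N2. Its levels were 179, 206 and 177 CPM in WT, 83.0, 70.7 and 91.4 in lola[E76] libraries, against 125, 136 and 119 in nerfin-1[159]. The 3 genotypes did not overlap, with lola[E76] lowest and nerfin-1[159] between. Lim1 fell by 1.20 ± 0.15 on the log2 scale in lola[E76] (edgeR adjusted p = 3.1e-05) and by 0.56 ± 0.14 in nerfin-1[159] (edgeR adjusted p = 0.0138), a call lost without WT replicate 2 or nerfin-1[159] replicate 3 (adjusted p reaching 0.0946).

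Drgx, a homeodomain transcription factor gene, held the domain of 4541 bp that N2 covered by 9.69% only (2L:3685461-3690001, score 1.43). Its levels were 55.6, 47.5 and 45.1 CPM in WT, 16.0, 24.8 and 20.8 in lola[E76] libraries, against 131, 59.7 and 112 in nerfin-1[159]. No lola[E76] library reached WT, and every nerfin-1[159] library exceeded it. The log2 difference was -1.26 ± 0.26 in lola[E76] (edgeR adjusted p = 0.00479) and 1.03 ± 0.25 in nerfin-1[159] (edgeR adjusted p = 0.00923; reaching 0.0703 without nerfin-1[159] replicate 1 or 3), and lola[E76] lay below nerfin-1[159] by -2.29 ± 0.27 (edgeR adjusted p = 5.74e-06).

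Eip93F, an ecdysone-responsive transcription factor, met a domain at its gene end (3R:21946851-21949331, score 3.18). It was at 986, 1173 and 1361 CPM in WT, while lola[E76] libraries had 491, 608 and 626 and nerfin-1[159] libraries 746, 304 and 632. Both mutants lay below WT without overlap. Eip93F fell by 1.03 ± 0.22 on the log2 scale in lola[E76] (edgeR adjusted p = 0.00494) and by 1.07 ± 0.22 in nerfin-1[159] (edgeR adjusted p = 0.00215), and both comparisons share the WT libraries.

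CG13108, whose role is not described here, had the largest fall among the called genes with a symbol, a mean log2 CPM of at least 3 and libraries that do not overlap. It was at 31.3, 43.5 and 31.8 CPM in WT, 2.42, 0 and 2.23 in lola[E76] libraries, against 39.6, 30.6 and 29.3 in nerfin-1[159]. The lola[E76] libraries stood below all others (log2 -4.52 ± 0.51, edgeR adjusted p = 1.44e-05). mrj, a DnaJ-type co-chaperone gene with a domain wholly inside it (2R:16208650-16212068, score 3.05), had 61.6, 60.2 and 70.5 CPM in WT and 34.1, 27.6 and 25.02 in lola[E76] (log2 -1.15 ± 0.21, edgeR adjusted p = 0.00158). CenG1A, an Arf GTPase-activating protein with 2 domains, had 154, 136 and 129 CPM in WT and 84.2, 95.7 and 54.3 in lola[E76] (-0.84 ± 0.19, edgeR adjusted p = 0.00999). Sema1a, a semaphorin that guides axons, had 860.0, 801 and 831 CPM in WT and 470.2, 601 and 546 in lola[E76] (-0.62 ± 0.11, edgeR adjusted p = 0.000917). For mrj, CenG1A and Sema1a all lola[E76] libraries lay below all WT libraries, and these calls held in every alternative fit.

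Other falls depended on the libraries kept or on the method. Adk3, an adenylate kinase (-1.65 ± 0.45, edgeR adjusted p = 0.0337), lost its call on dropping either of WT replicates 1 and 2, or either of lola[E76] replicates 2 and 3 (adjusted p reaching 0.125), and in a fit of only the 2 genotypes compared (0.058). Myo81F, a myosin whose gene body spans 1965857 bp (-1.64 ± 0.45, edgeR adjusted p = 0.034), and jing (-0.55 ± 0.16, edgeR adjusted p = 0.0407) lost theirs whichever WT or lola[E76] library was dropped, except WT replicate 3 for jing, with adjusted p reaching 0.186 and 0.198. These 3 calls thus lie close to the threshold. wnd, a kinase of the axon injury response (-1.14 ± 0.33, edgeR adjusted p = 0.0431), lost its call on dropping WT replicate 1 or 2, either of lola[E76] replicates 2 and 3, or else nerfin-1[159] replicate 3 (reaching 0.177). B-H1, a homeodomain temporal factor (-2.17 ± 0.53, edgeR adjusted p = 0.0155), lost its call without WT replicate 2 or 3 (reaching 0.0843) and with limma voom (0.0693). lncRNA:CR46004 (-0.95 ± 0.23, edgeR adjusted p = 0.0155) lost its call on dropping WT replicate 1, or lola[E76] replicate 1 or 3 (reaching 0.117), and in the DESeq2 Wald test (0.0825).

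Among the rises, ps was at 45.1, 58.1 and 63.7 CPM in WT, 178, 134 and 122 in lola[E76] libraries, against 194, 260.0 and 215 in nerfin-1[159], with both mutants above WT. The domain crossed its gene end (3R:9417488-9420487, score 2.94) and was covered whole by N2. The log2 difference from WT was 1.37 ± 0.18 in lola[E76] (edgeR adjusted p = 6.09e-05) and 2.00 ± 0.18 in nerfin-1[159] (edgeR adjusted p = 5.5e-07). Moe, whose domain lay wholly inside it (X:8890428-8892481, score 2.05), was at 262, 341 and 333 CPM in WT and 527, 528 and 460.4 in lola[E76], again without overlap (0.69 ± 0.12, edgeR adjusted p = 0.000998). Moe also rose in nerfin-1[159] (0.58 ± 0.12, edgeR adjusted p = 0.00261).

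fz2, a receptor for Wnt ligands, held a domain inside the gene (3L:19150591-19153317, score 2.91) besides a peak among the 500 and 3 narrow peaks. It was at 924, 1037 and 1026 CPM in WT, 1316, 1512 and 1672 in lola[E76] libraries, against 499.7, 515 and 359 in nerfin-1[159]. The genotypes did not overlap, with lola[E76] highest and nerfin-1[159] lowest. fz2 rose by 0.59 ± 0.13 on the log2 scale in lola[E76] (edgeR adjusted p = 0.00656), fell by 1.12 ± 0.13 in nerfin-1[159] (edgeR adjusted p = 8.84e-06) and differed between the mutants by 1.71 ± 0.13 (edgeR adjusted p = 3.8e-08).

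Mur2B, a mucin-related gene of 145235 bp that also met 9 of the 500 highest-scoring peaks, rose from 17.0, 12.1 and 10.04 CPM in WT to 54.9, 44.4 and 31.5 in lola[E76] (1.75 ± 0.36, edgeR adjusted p = 0.00423), and its libraries did not overlap. Prps, which makes phosphoribosyl pyrophosphate (0.92 ± 0.23, edgeR adjusted p = 0.0206), miple2, a midkine-like growth factor (0.87 ± 0.19, edgeR adjusted p = 0.00887), Task6, a potassium channel (0.50 ± 0.12, edgeR adjusted p = 0.0164), and CG3164 (1.17 ± 0.34, edgeR adjusted p = 0.0448) were called higher as well. The domain of CG3164 lay near its gene body but not on it, and a peak among the 500 of highest score met the gene too. Prps lost its call without WT replicate 1 or lola[E76] replicate 1 (reaching 0.106), miple2 without WT replicate 2 or lola[E76] replicate 3 (reaching 0.0662), and Task6 on dropping either of WT replicates 2 and 3, or lola[E76] replicate 3 (reaching 0.109). When 1 library was dropped, CG3164 kept its call only without lola[E76] replicate 1 or nerfin-1[159] replicate 1 (reaching 0.234 otherwise), and it lost it with limma voom (0.0834) and in the fit of the 2 genotypes alone (0.0635). Of the 16 genes plotted by library, 10 overlap another gene body, and the sources used here do not say whether the counting used strand.

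**Figure D4:**
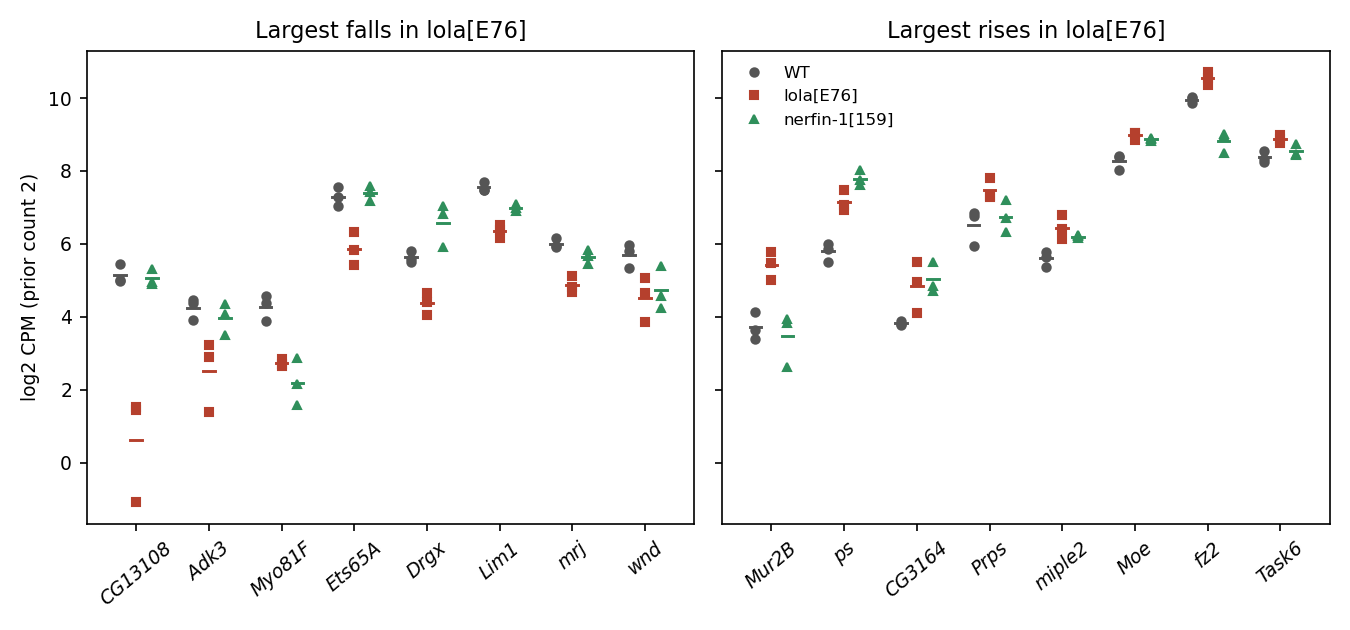
Log2 CPM (prior count of 2, vertical axis) of the 8 largest named falls (left) and 8 largest named rises (right) in lola[E76] among domain genes with a symbol, a mean log2 CPM of at least 3 and libraries that do not overlap, so B-H1 is not shown. Each point is a library and each bar the mean of 3. The lola[E76] libraries lie below WT in the left panel and above it in the right.

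Of the 24 listed genes with a domain that were tested, 5 were lower in lola[E76] (B-H1, Lim1, Ets65A, Eip93F and Sema1a) and 0 higher. Over all 215 tested genes of the lists, 21 were lower and 21 higher. chinmo had a domain inside the gene (2L:1685145-1688981, score 1.92) and another within 1 kb of it (2L:1648164-1650638, score 2.04). It was at 1337, 1569 and 1228 CPM in WT, 1753, 1729 and 1421 in lola[E76] libraries, against 981, 1224 and 1067 in nerfin-1[159]. WT overlapped lola[E76] (0.25 ± 0.12, edgeR adjusted p = 0.26) but not nerfin-1[159] (-0.34 ± 0.12, edgeR adjusted p = 0.0713), and chinmo differed between the mutants (0.58 ± 0.12, edgeR adjusted p = 0.00156).

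The other listed genes did not pass the test in lola[E76]. Their fitted log2 differences from WT are given with their SE. Among ecdysone genes the difference was -0.32 ± 0.20 for EcR, -0.00 ± 0.11 for Eip75B and -0.19 ± 0.20 for Hr4. It was -0.14 ± 0.11 for br, -0.18 ± 0.10 for elav, -0.25 ± 0.12 for mbl, -0.10 ± 0.10 for brat, and 1.36 ± 0.42 for grh, a neuroblast transcription factor (edgeR adjusted p = 0.062). The lola[E76] libraries of grh stood above all WT libraries, and grh was called higher in 7 of 15 alternative fits. For erm, Rx, eya and Gad1 it was -0.04 ± 0.30, 0.19 ± 0.49, -0.47 ± 0.88 and -1.32 ± 0.60. For the adhesion genes Ten-a and Nrg it was 0.12 ± 0.12 and -0.12 ± 0.11. The remaining listed genes serve growth and the cell cycle or, in the case of msi, bind RNA. For E2f1, Hex-A, RpL8 and msi it was 0.15 ± 0.11, 0.23 ± 0.15, 0.29 ± 0.09 and 0.13 ± 0.10. The lola[E76] libraries also stood above WT for RpL8 and Hex-A, and below it for Gad1, and RpL8 (edgeR adjusted p = 0.0653) was called in 3 alternative fits. Of genes in the widest domains, stan (0.27 ± 0.15), Smr (-0.17 ± 0.10) and crp (-0.07 ± 0.10) were not called either.

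In nerfin-1[159] clones the domain genes split more evenly, with 28 called higher and 24 lower of 285 (18.2%), beside 11.9% of all tested genes called, 5.66% higher and 6.27% lower. The median was 0.03 beside 0.00. Among genes of at least 20 kb, 30.7% of 101 domain genes were called, 13 higher and 18 lower, beside 32.6% of 775 other genes. Among shorter genes it was 11.4% of 184 beside 9.14% of 6389, and at or above the domain genes' median WT level 28.7% of 143 beside 22.6% of 1964. These splits too were chosen after the results were seen and carry no test. No split was made for 3L, the arm that carries nerfin-1. Without 1 library at a time, higher calls ran from 18 to 30 and lower calls from 15 to 29. CG13287 rose from 5.40, 4.79 and 6.63 CPM in WT to 36.2, 55.4 and 31.7 (2.86 ± 0.40, edgeR adjusted p = 6.81e-05), against 6.05, 16.4 and 7.37 in lola[E76]. lncRNA:CR46003, which borders a domain of 4350 bp (3L:10307892-10312241, score 1.87), rose from 167, 241 and 223 to 718, 1055 and 1129 CPM (2.20 ± 0.18, edgeR adjusted p = 1.3e-07). The nerfin-1[159] libraries of both genes stood above all others.

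The other named rises were vri, a bZIP factor of the circadian clock (1.66 ± 0.38, edgeR adjusted p = 0.00579), and CG43693 (2.08 ± 0.53, edgeR adjusted p = 0.012; reaching 0.067 on dropping WT replicate 1 or 2, or else nerfin-1[159] replicate 3). Listed genes that rose were E2f1, the S phase activator (0.87 ± 0.11, edgeR adjusted p = 1.57e-05), Hex-A, a hexokinase (0.70 ± 0.15, edgeR adjusted p = 0.0029), and msi, an RNA-binding protein (0.46 ± 0.10, edgeR adjusted p = 0.00596). CG3164 rose as well (1.27 ± 0.34, edgeR adjusted p = 0.017; reaching 0.107 on dropping WT replicate 2 or 3, or else nerfin-1[159] replicate 1). mbl fell by 0.73 ± 0.12 (edgeR adjusted p = 0.000296), and br by 0.35 ± 0.11 (edgeR adjusted p = 0.0486; reaching 0.197 on dropping WT replicate 1 or 2, or else nerfin-1[159] replicate 2 or 3).

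By the same rule, the largest falls in nerfin-1[159] were of Myo81F, hng3, Bx, lov and CG42674. Myo81F had 14.3, 23.3 and 20.3 CPM in WT and 6.8, 2.51 and 4.00 in nerfin-1[159] (-2.13 ± 0.47, edgeR adjusted p = 0.00449). Bx, a LIM-only cofactor, had 57.3, 52.7 and 64.0 in WT and 18.7, 24.6 and 10.4 (-1.69 ± 0.28, edgeR adjusted p = 0.000302). lov, a BTB domain gene (-1.30 ± 0.30, edgeR adjusted p = 0.00643), hng3 (-1.84 ± 0.34, edgeR adjusted p = 0.000931) and CG42674 (-1.20 ± 0.18, edgeR adjusted p = 0.000154) fell too. In each of the 5 every nerfin-1[159] library was below every WT library.

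The comparisons with WT share the 3 WT libraries, so their calls are set side by side only. There were 14 domain genes called in both, of which 4 were higher in both, 6 lower in both and 4 opposite (fz2 and Drgx, and pyd and apt, which are named after their values were seen), while 27 were called in lola[E76] only and 38 in nerfin-1[159] only. The matching counts over all tested genes are not given here. Whether these overlaps are usual for tested genes therefore cannot be read from them. The direct comparison of the mutants called 69 of 285 domain genes (24.2%), 48 lower in lola[E76] and 21 higher, beside 15.5% of all tested genes, 6.94% lower and 8.58% higher. Of the domain genes of at least 20 kb 31.7% were called, 20 lower and 12 higher, beside 36.8% of other genes that long, 60 lower and 225 higher. The genes called included CG13108 (-4.42 ± 0.51, edgeR adjusted p = 6.06e-06), lncRNA:CR46003 (-2.09 ± 0.18, edgeR adjusted p = 1.27e-07), Ets65A (-1.51 ± 0.21, edgeR adjusted p = 3.99e-05) and Mur2B (1.92 ± 0.36, edgeR adjusted p = 0.000934). ps was lower in lola[E76] (-0.63 ± 0.17, edgeR adjusted p = 0.0157; reaching 0.104 on dropping lola[E76] replicate 2 or 3, or else nerfin-1[159] replicate 2).

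Libraries of the compared genotypes did not overlap for 37.2% of the domain genes between lola[E76] and WT, beside 24.8% of all tested genes, for 33.3% beside 30.5% between nerfin-1[159] and WT, and for 37.9% beside 30.3% between the mutants. Of 301 domains, 225 had a tested gene, and of these 37 met a gene lower in lola[E76] and 12 a gene higher. A gene with several domains counts in each of them here. Of the 21 such genes, 6 were lower and 0 higher, so the count by gene given above is the one to read. Of all tested genes 2.91% were lower and 3.58% higher. Most of the 21 genes reach 20 kb, and many also met peaks of the other classes. Domain genes of at least 20 kb gave 16 lower and 4 higher of 101, and other genes that long 42 and 58 of 775. The part of gene length in the 6 falls was not tested. Domains of the other peak classes were not counted in this way.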

How the data were processed

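RNA was measured in 9 libraries, 3 for each genotype, and Lola.N contact in 2 DamID replicates. The authors deposited raw counts per gene, made with QuantSeq per the labels; Subread, featureCounts and limma appear, with no version, in the submitters' processing notes. The authors' deposited peak lists give a score and an FDR (false discovery rate) per peak, called per replicate against Dam alone at FDR 0.01 per the file names. The sources used here give no build, annotation or counting strand, and the Dam-only data were not analysed here.

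Members and gene lists were chosen with earlier results of these data known. Overlaps and gene assignment (body plus 1000 bp on either side, RefSeq Release 6 plus ISO1 MT table) used Python 3.11.15 with numpy 2.4.6 and pandas 2.3.3, and figures used matplotlib 3.10.9. Counts were tested in R 4.3.3 with edgeR 4.0.16: filterByExpr left 7451 of 17633 genes, scaling was by TMM, and a quasi-likelihood model (1 mean for each genotype, all 9 libraries) gave two-sided tests, called at p under 0.05 after Benjamini-Hochberg adjustment over all tested genes. SE was taken as the log2 difference over the square root of F. The 33 genes without symbol took up to 0.00852% of a library. Libraries held 3465601 to 5200223 counts, so that 3 counts equal 0.577 to 0.866 CPM. On simulated counts for lola[E76] against WT the fit recovered 142 of 200 changed genes with 12 false calls among 7451 genes. The simulated rises had a median fitted log2 difference of 2.03. Called falls and rises of domain genes in lola[E76] had medians smaller in size, -0.86 and 1.04. Recovery at such differences was not simulated. Replicate numbers did not pair libraries (r of deviations -0.0564 to 0.0232, with 1 of 9 libraries closest to those of its number), so they entered an alternative only.

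Domains given with positions were some of the 12 widest, those beside each threshold, and domains of named genes. Named genes were listed genes with a domain, genes of the widest domains or with most domains, fixed genes, and the 8 largest called rises and falls in lola[E76] (5 for the other comparisons) with a mean log2 CPM of at least 3, separate libraries and a symbol. Alternatives were DESeq2 1.42.0 size factors and Wald test, limma 3.58.1 voom, no filter, only the groups compared, a replicate block, each library left out, and other rules for domains and genes. Splits by level, length, arm, score, context and N2 coverage were added after seeing the data. The planned motif search in sequences was not run.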

Additional observations from a re-analysis of the deposited data

How the results depend on the processing

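Counts below are domains or their called genes. With a width of at least 1500 bp there were 537 domains and 760 genes, with 26 higher in lola[E76] than WT, 48 higher and 84 called in nerfin-1[159] against WT, and 46 higher and 115 called between the mutants. At 3000 bp there were 92 domains and 145 genes, with 3 higher and 11 lower (14 called) in lola[E76], 15 higher and 7 lower (22 called) in nerfin-1[159], and 8 higher and 21 lower (29 called) between the mutants. With N2 covering at least 50% of the peak, 7 were higher in lola[E76]. At an FDR of at most 0.001 there were 184 domains and 266 genes, with 4 higher in lola[E76], 17 higher and 34 called in nerfin-1[159], and 11 higher and 44 called between the mutants. With 5000 bp around gene bodies there were 832 genes, 23 higher in lola[E76] and 32 higher between the mutants. Fewer or more regions enter by construction. Lower calls outnumbered higher ones in lola[E76] in all 9 of these and the other rule and gene alternatives, and in all 15 other fits. The share of lower among called genes ran from 64.7% to 75% over those fits. Beside 29 lower and 12 higher under the main rule, some rules were less one-sided. These gave 35 lower and 26 higher at 1500 bp, 26 and 18 with N2 as the base list, 37 and 23 with 5000 bp around genes, and 30 and 16 with no score cut. Others were more one-sided, with 25 and 4 at an FDR of at most 0.001 and 27 and 7 at 50% coverage. Under the replicate block, 25 were lower and 10 higher in lola[E76]; Adk3, Myo81F, jing, CG3164 and, off the domains, nerfin-1 lost their calls there, and chinmo in nerfin-1[159] gained one, as it did with voom and with no filter. In the DESeq2 Wald test the adjusted p of nerfin-1 in lola[E76] was 0.38. Without 1 library at a time, lola[E76] gave 6 to 12 higher, 14 to 30 lower and 21 to 42 called, nerfin-1[159] 18 to 30, 15 to 29 and 34 to 56, and the mutants 13 to 22 higher between them.

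Of 195 pairs of named gene and comparison, 83 were called, 56 of them under every alternative fit, and 18 of the 112 others were called under at least 1; 35 pairs changed sign somewhere, none of them called in the main test. In lola[E76], Eip75B was 0.0024 with DESeq2 size factors, 0.0025 with the DESeq2 Wald test, 0.0098 with voom, 0.0045 with the replicate block and -0.082 to 0.0762 without 1 library; there erm ran from -0.4713 to 0.2321, Rx from -0.0858 to 0.5359 and eya from -1.5769 to 0.0725. Limits: the peak lists carry no depth, the build match is inferred, and 3 pooled libraries per genotype set the precision.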
